A study of Mus musculus with 18 samples.

Results

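Fasted liver of Cav1 knockout (KO) mice was compared with fasted liver of wild-type (WT) mice on Illumina Mouse-6 V1 BeadChip arrays, 3 arrays for each genotype. These were 6 of the 18 arrays of the series, taken by their titles. The others held embryonic fibroblasts (MEFs), taken 24 hours after plating, and adipose tissue of the same genotypes. The livers came from animals without food for 24 hours, were washed with cold buffer to remove blood and were frozen, and the adipose tissue came from animals without food for 11 hours. The genotype names, WT and KO, are all that the labels give of the animals. The strain, the age, the way the Cav1 allele was made, and whether WT and KO were littermates are not given in the sources used here. The labels do not state that each array held a separate animal, so the p-values measure the spread between these arrays.

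Caveolin-1, the product of Cav1, coats the flask-shaped membrane pits called caveolae, which are dense in endothelial cells, fibroblasts and adipocytes and sparse in hepatocytes. During a fast the liver takes up fatty acids released by adipose tissue, burns them in mitochondria and peroxisomes, makes ketone bodies and glucose, and keeps up the secretion of plasma proteins. The nuclear receptor PPAR-alpha drives many of the genes for fat oxidation in this state. The results below follow these roles, from secreted proteins to fat oxidation, chaperones, chromatin, respiration, detoxification and signalling.

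The arrays detected 12075 to 13129 of 45992 probes, and correlations between arrays were 0.968 to 0.995. WT 1 came from a second slide, and the remaining 5 arrays shared a slide, where the WT arrays came first by position and the KO arrays last, so that position and genotype cannot be told apart. KO 1 lay nearer to the WT arrays than the other KO arrays did, with a first principal component score of 10.2 against 21.4 and 20.95 (WT arrays, -19.8 to -15.5). All 8 measured hepatocyte markers were detected on each of the 6 arrays, with summed levels of 189709 to 213019 in WT and 190901 to 195326 in KO, and 0 of them were called. These sums are partly set by quantile normalisation, which gave Apoa2 the same value on all 6 arrays, so they do not measure hepatocyte content. The markers Krt19 (cholangiocytes), Cd3e and Ptprc (leukocytes), Mpo and Elane (neutrophils), Prss1 and Try4 (pancreas) and Actn3 (muscle) were not detected. Other members of some of these lists were. Spp1 and Cldn4 (cholangiocytes) and Ighm (lymphocytes) were detected on all 6 arrays, and S100a9, Retnlg, Cel and Cela2a on some. Spp1 differed by 0.81 ± 0.22 and was not called (limma's adjusted p = 0.104). The cholangiocyte sums were 392 to 447 in WT and 464 to 662 in KO. The Y-linked transcripts Eif2s3y and Kdm5d were detected on all 6 arrays and Xist on 0, with no difference in this between genotypes. Of the other Y-linked transcripts, Ddx3y was detected on 1 KO array and Uty on 0 arrays.

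Among markers of cells other than hepatocytes, 1 of blood and 1 of stroma were called. Among the haemoglobin genes Hbb-b2 was called lower at -1.15 ± 0.16 (limma's adjusted p = 0.0238), which was -2.57 and not called with the authors' values (limma's adjusted p = 0.0819), and Hba-a1 and Hbb-b1, at -1.77 ± 0.58 and -1.84 ± 0.49, were not called. The summed level of the 3 haemoglobin probes was 19568 to 35765 in WT and 4118 to 16220 in KO, with KO 1 the highest of the KO arrays. Of 4 measured stellate cell and fibroblast markers, 4 were positive. Reln was called higher at 0.68 ± 0.09 (limma's adjusted p = 0.0246). Dcn was at 0.59 ± 0.23 and not called, and the dim Col3a1 and Lrat were at 0.05 ± 0.06 and 0.03 ± 0.05. The sums of this list, 4211 to 5822 in WT and 6198 to 8963 in KO, come mostly from Dcn and Reln. Acta2 and Col1a1 were not detected, and Col1a2, not tested, was detected on 2 WT and 0 KO arrays. The 6 measured endothelial markers had 0 calls, and their sums overlapped (2704 to 4431 in WT, 2568 to 4989 in KO). The 4 measured Kupffer cell and macrophage markers also had 0 calls (sums of 780 to 1352 in WT and 806 to 1800 in KO). The part of these cells in the results that follow was not tested, and in whole tissue fewer cells of a type and less RNA per cell cannot be told apart.

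The targeted gene was dim in this tissue. The raw Cav1 intensity was 158, 166 and 186 in WT livers and 134, 123 and 109.6 in KO livers, so the groups did not overlap. On the normalised log2 scale the difference was -0.23 ± 0.05 (SE, n = 3 per group), short of the threshold (limma's adjusted p = 0.0609). With other settings Cav1 was called lower, at -1.37 with a background from median and median absolute deviation (MAD; limma's adjusted p = 0.0181), at -2.38 with the authors' values (limma's adjusted p = 0.0281), at -0.51 with no background correction (limma's adjusted p = 0.0260), at -0.23 with a trended robust variance (limma's adjusted p = 0.0111) and at -0.26 without KO 1 (limma's adjusted p = 0.0444). In 10 of the 15 alternatives that tested it Cav1 stayed uncalled. Among these, limma's adjusted p was 0.0767 with median centring, 0.102 with the slide as a block and 0.688 in 1 fit over 18 arrays. In MEFs the difference was -3.44 and in adipose tissue -4.38. Cav1 was detected on 3 of 3 WT and 1 of 3 KO liver arrays, so the size of its difference in liver is limited by the background and was not set against these. Cav1 lies on chromosome 6. Its 18 nearest measured named genes, 8 before it and 10 after it in annotation order, had 0 calls, and the extremes among them were Fam3c at 0.41 ± 0.09 and Ndufa5 at -0.40 ± 0.10 (limma's adjusted p = 0.0685 and 0.0939). Of the other measured caveola genes, Pacsin3, a membrane-bending protein, differed by 0.27 ± 0.14, Flot2 by -0.10 ± 0.15 and Ehd4 by 0.01 ± 0.11, none of them called.

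Of 12571 probes tested, 590 passed an adjusted p under 0.05 (4.69%), 247 of them higher in KO (1.96%) and 343 lower (2.73%), and these are called higher or lower in what follows. The groups did not overlap for 3507 probes (27.9%). The 40 genes with the largest called differences were chosen among genes without overlap, so its absence is no finding about them. At least 2-fold differences made up 50 of the higher calls (0.398%) and 64 of the lower ones (0.509%). The balance of the directions depended on the scaling. With median centring of the arrays in place of quantile normalisation 560 were higher and 140 lower (80.0% higher against 41.9%), and with the background taken from the median and median absolute deviation of the negative controls 307 were higher and 265 lower (53.7% higher). Gene names could be read for 186 called probes of 183 genes, 73 higher and 113 lower. Over the 3660 named genes tested, each by its brightest probe, 1.91% were higher and 2.84% lower (4.75% in all), with a median difference of -0.01, and these are the shares against which the gene lists are read. The values of 38 of the 40 genes with the largest called differences are plotted for each array.

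**Figure D1:**
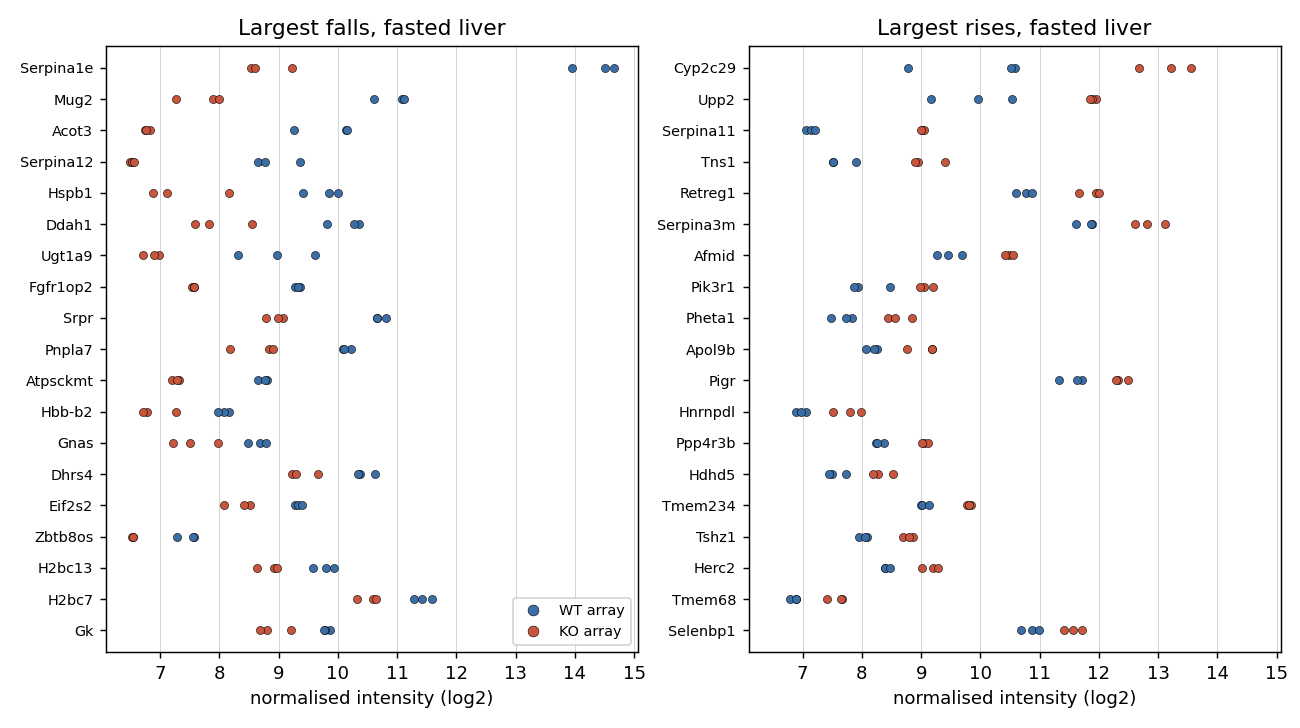
Normalised intensity (log2, horizontal axis) of 19 of the 20 largest falls (left) and 19 of the 20 largest rises (right) among called named genes, with 1 point per array (blue WT, red KO). The genes were chosen so that the 3 KO and 3 WT arrays do not overlap. Serpina1e shows the widest gap and Cyp2c29 the widest rise, with WT 1 below the other WT arrays for Cyp2c29.

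The serpin A genes, whose products are secreted inhibitors of serine proteases or relatives of these, held the largest fall. Serpina1e is 1 of 5 near-identical alpha-1-antitrypsin genes that lie side by side on mouse chromosome 12. Its raw intensity was 26327, 23442 and 17662 in WT livers and 795, 576.5 and 578.5 in KO livers. Every KO array lay well below every WT array, and the normalised levels were 14.37 ± 0.37 in WT and 8.79 ± 0.38 in KO (SD, n = 3). Serpina1e fell by 5.58 ± 0.26 (limma's adjusted p = 0.00150), and the call was kept in 6 of 6 fits with 1 array left out. Serpina1b, another of these copies, read 25406, 28752 and 27706 in WT livers and 22110.0, 24336 and 21996 in KO livers, which is -0.20 ± 0.05 and not called (limma's adjusted p = 0.105). Serpina1a differed by -0.46 ± 0.14 and Serpina1d by -0.15 ± 0.11, also not called, and Serpina1c had no measured named probe. Because these copies share most of their sequence, a probe for 1 of them can bind transcripts of another, and the level left in KO for Serpina1e is uncertain for that reason.

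The promoters of Serpina1e and Serpina1b are shown because their KO values were so unequal, and so that the closeness of the copies can be seen. They come from RefSeq (GRCm38.p6), run from 250 bases before to 50 bases after the annotated start, and carry in capitals the bases that differ between them within the stretch they share. Serpina1e lies at chr12:103956848-103957147, minus strand, and Serpina1b at chr12:103738140-103738439, minus strand.
Serpina1e: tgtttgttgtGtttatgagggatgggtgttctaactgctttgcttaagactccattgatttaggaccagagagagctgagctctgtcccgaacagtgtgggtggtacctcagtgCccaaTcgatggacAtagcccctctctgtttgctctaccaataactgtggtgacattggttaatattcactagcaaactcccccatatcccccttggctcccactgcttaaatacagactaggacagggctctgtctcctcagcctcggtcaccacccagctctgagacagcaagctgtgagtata
Serpina1b: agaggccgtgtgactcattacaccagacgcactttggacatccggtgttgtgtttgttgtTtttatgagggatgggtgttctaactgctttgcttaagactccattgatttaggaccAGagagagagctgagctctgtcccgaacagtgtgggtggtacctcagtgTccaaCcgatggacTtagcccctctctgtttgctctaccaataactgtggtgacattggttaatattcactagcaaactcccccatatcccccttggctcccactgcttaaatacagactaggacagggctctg
The annotated starts are offset, so the windows align over 250 positions, of which 244 are identical, 4 are mismatches and 2 are gap positions (97.6% identity). Among the 10 pairs of the 5 promoters Serpina1a to Serpina1e, identity ran from 91.4% to 97.6%. These letters describe the reference genome only, and the animals' own sequence was not analysed here.

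Other serpin A genes moved in both directions. Serpina12, which encodes vaspin, read 550.0, 781 and 617 in WT livers and 91.8, 110.3 and 119 in KO livers, lost detection on the 3 KO arrays, a fall of at least 4.88-fold (limma's adjusted p = 0.00671). Serpina11, which lies 2 places before Serpina12 in annotation order and next to Serpina1e, read 219, 230.3 and 258 in WT livers and 712, 739 and 706 in KO livers. It rose by 1.89 ± 0.05 (limma's adjusted p = 0.000171) and kept its call in 6 of 6 fits with 1 array left out. Serpina3m, of the antichymotrypsin branch, read 3136, 3752 and 4123 in WT livers and 6341, 9181 and 7016 in KO livers and rose by 1.06 ± 0.15 (limma's adjusted p = 0.0239), with the call kept in 2 of 6 such fits. Its neighbour Serpina3n differed by 0.91 ± 0.31, Serpina3k by -0.11 ± 0.14 and Serpina3g by -0.76 ± 0.55, none of them called. In all, 15 serpins of the list were measured, 2 were higher and 2 lower, and the median was -0.03.

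**Figure D2:**
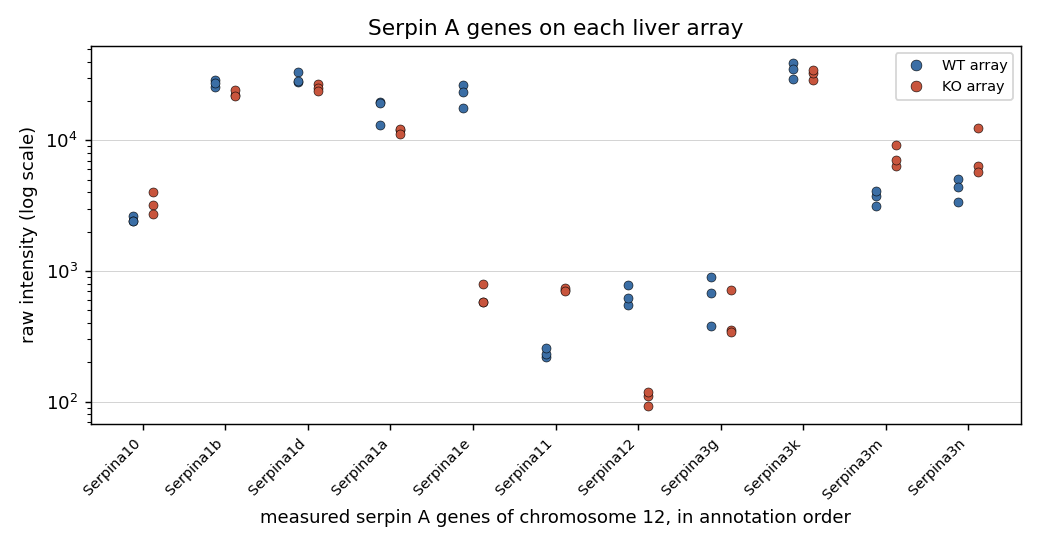
Raw intensity (log axis) of the 11 measured serpin A genes of chromosome 12 in annotation order, with 1 point per array (blue WT, red KO). Serpina1e and Serpina12 are low on the 3 KO arrays, Serpina11 and Serpina3m are high on them, and Serpina1b, Serpina1d and Serpina1a stay bright in both genotypes.

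The murinoglobulins, broad protease inhibitors of mouse plasma, also split. Mug2 read 2249, 2315 and 1799.5 in WT livers and 283.5, 414 and 432 in KO livers and fell by 3.22 ± 0.24 (limma's adjusted p = 0.00603), called in 6 of 6 fits with 1 array left out. Mug1, the closely related neighbour, differed by 0.39 ± 0.18 and was not called. The pseudogene Mug-ps1 had a dim probe at -0.62 ± 0.07 that was called lower and a bright probe at 0.48 ± 0.27 that was not. These genes are near-identical too, and the probes can share transcripts. Among other secreted proteins, Pigr, the polymeric immunoglobulin receptor that carries antibodies into bile, read 3369.5, 3173 and 2901 in WT livers and 5345, 6041 and 5075 in KO livers and rose by 0.81 ± 0.12 (limma's adjusted p = 0.0261). The 4 measured coagulation genes had 0 calls and a median of 0.30, the 5 complement genes 0 calls and a median of 0.17 with C4b at 1.02 ± 0.35, and the 9 apolipoprotein and lipoprotein genes 0 calls and a median of -0.07.

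The acute phase list, plasma proteins whose synthesis rises in inflammation, had 6 of 6 measured members positive with a median of 0.91 and 0 calls. Saa1, serum amyloid A, read 469.5, 381 and 631 in WT livers and 3208, 5996 and 741.5 in KO livers, a difference of 2.70 ± 0.87 (limma's adjusted p = 0.149). Cp, ceruloplasmin, differed by 0.90 ± 0.29 and Crp, C-reactive protein, by 0.45 ± 0.09. For Saa1 the KO arrays lay above the WT arrays but spread widely among themselves. The medians of the list on KO 1, KO 2 and KO 3 relative to the WT mean were 0.63, 1.33 and 0.52. Without KO 2 the list median was 0.53, and without KO 1 it was 1.08 with 2 members called.

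Genes of fat oxidation were lower in KO where they were called. Acot3, a peroxisomal acyl-CoA thioesterase, read 1242, 743 and 1365 in WT livers and 160.1, 187 and 171 in KO livers. The groups lay far apart. Acot3 fell by 3.07 ± 0.25 (limma's adjusted p = 0.00727), called in 6 of 6 fits with 1 array left out. Crat, carnitine acetyltransferase, fell by 0.83 ± 0.10 from raw readings of 403, 385 and 472 to 248, 310.3 and 266 (limma's adjusted p = 0.0179). Hadhb, the beta subunit of the mitochondrial trifunctional protein, read 8984, 9528.5 and 9613 in WT livers and 6204, 6666 and 6434 in KO livers and fell by 0.53 ± 0.05 (limma's adjusted p = 0.00948), called in 5 of 6 such fits. Of the 9 measured PPAR-alpha targets 9 were negative, 2 were called lower (Acot3 and Crat) and the median was -0.64. Not called were Acsl1, a long-chain acyl-CoA synthetase, at -0.71 ± 0.15, Angptl4, an inhibitor of lipoprotein lipase, at -0.59 ± 0.14 and Cyp4a10, a fatty acid omega-hydroxylase, at -0.64 ± 0.18. The nuclear receptor half-site AGGTCA, searched on both strands, was found for 1 of the 4 PPAR-alpha targets with a promoter in the RefSeq table, Acot3, and in 16.3% of all 32851 promoters.

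Peroxisomal genes gave 11 of 11 measured members negative with a median of -0.33 and 1 call, Pex6, an ATPase of the import machinery, at -0.33 ± 0.06. Scp2, sterol carrier protein, at -1.11 ± 0.21, and Abcd3, a fatty acid transporter of the peroxisomal membrane, at -0.76 ± 0.19, did not pass (limma's adjusted p = 0.0501 and 0.0913). Mitochondrial beta-oxidation had 4 measured members, all negative, with Hadhb called and Etfa, Acadl and Hadh at -0.20, -0.08 and -0.02. Bdh1, which interconverts the ketone bodies, differed by -0.82 ± 0.16 (limma's adjusted p = 0.0514). On KO 1, KO 2 and KO 3 the PPAR-alpha list lay at medians of -0.83, -0.46 and -0.50 relative to the WT mean, and the peroxisome list at -0.44, -0.29 and -0.09. So KO 1 was the lowest array for both lists, and without it the medians were -0.47 and -0.25. With median centring 8 of 11 peroxisomal and 8 of 9 PPAR-alpha members were negative, with 0 and 2 calls. The call of Pex6 was kept without WT 1 (limma's adjusted p = 0.0440) and lost when any other array was left out (limma's adjusted p from 0.0647 to 0.158), and without KO 1 another peroxisomal member was called.

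Lipid handling beyond oxidation changed in single genes. Pnpla7, a lysophospholipase of the endoplasmic reticulum and lipid droplets, read 1321, 1206 and 1331 in WT livers and 649, 479.5 and 676 in KO livers and fell by 1.497 ± 0.20 (limma's adjusted p = 0.0223). Gk, glycerol kinase, which feeds the glycerol of lipolysis into glucose synthesis, read 1068, 1001 and 1096 in WT livers and 638, 619.6 and 789 in KO livers and fell by 0.90 ± 0.14 (limma's adjusted p = 0.0312). Dhrs4, a peroxisomal carbonyl reductase, fell by 1.06 ± 0.14 (limma's adjusted p = 0.0222). All are among the largest falls, which were chosen without overlap between the groups. Of 9 genes of fatty acid and triglyceride synthesis 0 were called, with Fasn, fatty acid synthase, at 0.58 ± 0.21, Acly, ATP citrate lyase, at 0.50 ± 0.13 and Fads2, a fatty acid desaturase, at -0.79 ± 0.21. Of 14 genes of cholesterol synthesis 0 were called, with Hmgcs1, which makes the precursor of mevalonate, at -0.86 ± 0.44. Of 6 genes of gluconeogenesis and glycogen 0 were called, with Pck1, the fasting-induced PEP carboxykinase, at -0.35 ± 0.23 and Gckr, the glucokinase regulator, at 0.57 ± 0.15, and the 4 bile acid genes had 0 calls.

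Chaperone genes leaned negative. Of 13 measured members, 12 were negative, 4 were called lower and the median was -0.52, against 2.84% of named genes called lower and a median of -0.01. Hspb1, a small heat shock protein that binds unfolding proteins and actin, read 818, 1032 and 1242 in WT livers and 475, 253.5 and 199 in KO livers. KO 1 kept more Hspb1 than KO 2 and KO 3, and all 3 lay below WT. Hspb1 fell by 2.36 ± 0.36 (limma's adjusted p = 0.0309), a call kept in 1 of 6 fits with 1 array left out. Fkbp4, a co-chaperone of steroid receptors, read 1514, 1392 and 1589.7 in WT livers and 1144, 1037 and 1049 in KO livers and fell by 0.63 ± 0.07. Hspa9, the mitochondrial Hsp70, fell by 0.64 ± 0.11, and St13, an Hsp70-interacting protein, by 0.52 ± 0.04 with raw readings of 560.0, 566 and 614 in WT livers and 477.5, 492 and 482 in KO livers (limma's adjusted p = 0.00671). The cytosolic Hsp90 genes Hsp90aa1 (-0.90 ± 0.26) and Hsp90ab1 (-0.80 ± 0.19) were negative without passing, as was the mitochondrial chaperonin Hspd1 (-0.23 ± 0.08), and Cct4, of the cytosolic chaperonin, was the positive member at 0.43 ± 0.22. Without WT 3, 0 of the 13 were called lower, without WT 1, WT 2, KO 2 or KO 3 the number was 2, and without KO 1 it was 7. With median centring the median was -0.24 with 2 calls, and with the authors' values 1 member was called.

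Heat shock factors bind inverted repeats of GAA, and the promoters of Hspb1 and Fkbp4 are shown for that reason, with GAANNTTC in capitals. Hspb1 lies at chr5:135887669-135887968, plus strand, and Fkbp4 at chr6:128438607-128438906, minus strand (RefSeq, GRCm38.p6).
Hspb1: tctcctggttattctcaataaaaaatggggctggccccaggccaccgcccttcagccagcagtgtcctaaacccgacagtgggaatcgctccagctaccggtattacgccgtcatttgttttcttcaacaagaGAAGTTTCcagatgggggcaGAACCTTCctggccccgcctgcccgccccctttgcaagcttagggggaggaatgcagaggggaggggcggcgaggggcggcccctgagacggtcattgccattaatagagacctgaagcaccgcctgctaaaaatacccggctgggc
Fkbp4: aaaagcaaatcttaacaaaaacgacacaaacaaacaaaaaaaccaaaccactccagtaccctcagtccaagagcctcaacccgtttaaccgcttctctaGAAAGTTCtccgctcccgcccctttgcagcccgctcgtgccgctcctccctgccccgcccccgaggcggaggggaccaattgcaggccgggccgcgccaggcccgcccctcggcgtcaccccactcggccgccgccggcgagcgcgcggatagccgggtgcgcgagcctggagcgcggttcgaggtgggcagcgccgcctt
The letters GAANNTTC, which read alike on both strands, begin 117 and 97 bases before the start of Hspb1 and 151 bases before that of Fkbp4, and the 2 matches in Hspb1 do not overlap. Of 13 measured chaperone genes 6 had a promoter in the table, and 4 of these (Hspb1, Fkbp4, Hspe1 and Hspd1) held a match. Over all 32851 promoters of the same length the share was 7.86%, counted per promoter, whereas a gene counted as a match if any of its promoters held one. Overlap between the promoter windows of different genes was not checked, so the same site may be counted for several genes. Hspe1 and Hspd1 were not called.

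Among the replication-dependent histone genes, a list added after the values were seen, the 7 calls were all H2B genes. Of 10 measured H2B genes, 10 were negative, 7 were called lower and the median was -0.82. The 8 measured H2A genes, 3 H3 genes and 10 H4 genes had 0 calls and medians of -0.05, -0.08 and 0.00. H2bc13 read 1100.5, 1007.5 and 979 in WT livers and 677, 602 and 696 in KO livers, and H2bc7 read 3101, 2781 and 2802 in WT livers and 1735, 1509 and 1816 in KO livers. For both genes each KO array lay below each WT array, as the choice of the largest falls required. H2bc13 fell by 0.93 ± 0.13 (limma's adjusted p = 0.0238), H2bc7 by 0.91 ± 0.12, H2bc9 by 0.89 ± 0.16, H2bc15 by 0.87 ± 0.11, H2bc11 by 0.83 ± 0.11, H2bc14 by 0.82 ± 0.12 and H2bc12 by 0.57 ± 0.10. H2bc4 and H2bc22, at -0.59 ± 0.16 and -0.60 ± 0.16, did not pass, and H2bc21 was at -0.05 ± 0.04. All 7 called genes lie on chromosome 13. H2B genes encode nearly the same protein and their probes can share transcripts, so the 10 values are not independent. The H2B medians on KO 1, KO 2 and KO 3 relative to the WT mean were -0.72, -0.94 and -0.79, and on the WT arrays 0.15, -0.01 and -0.09.

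The H2B difference kept its sign and most of its size under every alternative run, from -0.89 to -0.63 in the median, but its calls did not. Without WT 2 or WT 3 the number of H2B genes called was 0, without WT 1 or KO 3 it was 1, without KO 2 it was 2, and with the authors' values it was 0. The promoters of H2bc14 (chr13:21721794-21722093, plus strand) and H2bc12 (chr13:22035571-22035870, plus strand) are shown because each holds the octamer ATTTGCAT, an element described at H2B promoters, in capitals here (RefSeq, GRCm38.p6).
H2bc14: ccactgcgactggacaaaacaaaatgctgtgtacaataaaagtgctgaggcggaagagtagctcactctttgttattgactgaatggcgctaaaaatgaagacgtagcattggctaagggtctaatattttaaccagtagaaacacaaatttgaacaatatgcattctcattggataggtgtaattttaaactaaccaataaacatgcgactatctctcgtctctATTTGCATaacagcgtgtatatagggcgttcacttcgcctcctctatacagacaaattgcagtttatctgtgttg
H2bc12: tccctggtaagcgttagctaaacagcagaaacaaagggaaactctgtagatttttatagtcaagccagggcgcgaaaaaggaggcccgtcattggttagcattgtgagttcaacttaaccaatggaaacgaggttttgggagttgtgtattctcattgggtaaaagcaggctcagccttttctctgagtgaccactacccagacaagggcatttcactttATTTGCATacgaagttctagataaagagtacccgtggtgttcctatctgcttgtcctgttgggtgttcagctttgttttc
The octamer begins 25 bases before the start of H2bc14 and 30 bases before that of H2bc12. Of 10 measured H2B genes 8 had a promoter in the table, and 2 held the octamer on either strand, against 1.74% of all 32851 promoters. The other called H2B genes with a promoter had no match of these exact letters in this window.

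**Figure D3:**
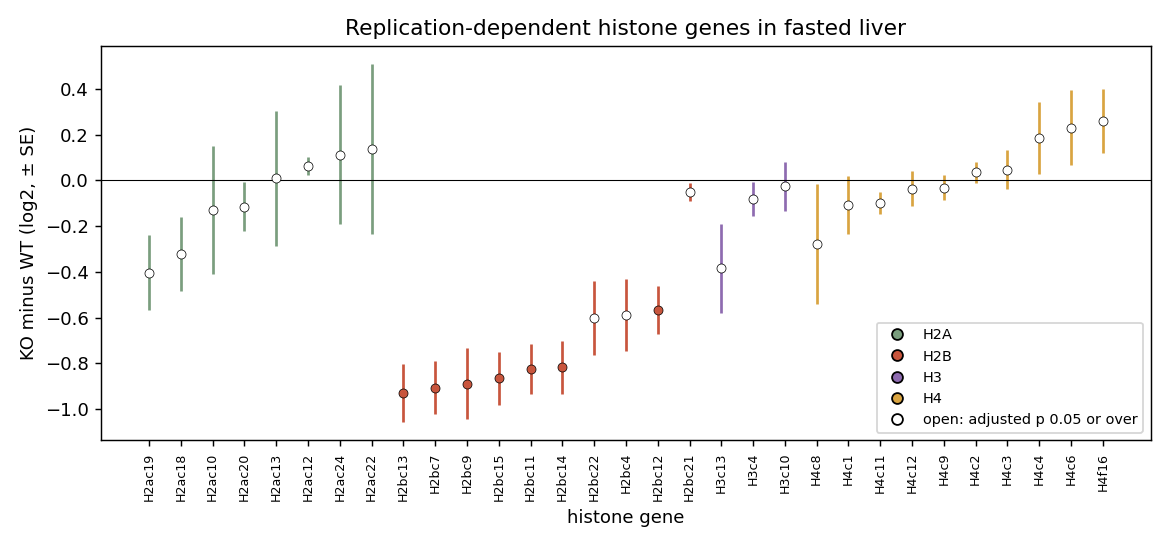
KO minus WT difference (log2, vertical axis, bars ± SE) of 31 measured histone genes, coloured by histone, with filled points for an adjusted p under 0.05. The H2B genes, apart from H2bc21, sit between -0.93 and -0.57, and the H2A, H3 and H4 genes scatter around 0 without a call.

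Nuclear genes of the respiratory chain were mostly negative in KO. Of 43 measured nuclear genes of oxidative phosphorylation, 39 were negative, 6 were called lower and the median was -0.25. The called genes were Ndufa11 (-0.54 ± 0.10), Ndufb7 (-0.45 ± 0.04) and Ndufs3 (-0.32 ± 0.06) of complex I, Cycs (-0.40 ± 0.08), which encodes cytochrome c, and Cox6a1 (-0.38 ± 0.06) and Cox5b (-0.32 ± 0.04) of complex IV. Cox5b read 7705, 7904 and 8429.6 in WT livers and 6647, 6501 and 5944 in KO livers, and Ndufb7 read 316, 311 and 343.5 in WT livers and 269, 248 and 250.1 in KO livers. These are small differences between tight groups. Cox7a2l, a paralogue of complex IV subunits, had the widest value of the list at -1.66 ± 0.64 and was not called (limma's adjusted p = 0.205). A second Ndufs3 probe was also called (-0.33 ± 0.05), while second probes of Cox5b (-0.54 ± 0.13) and Cox6a1 (-0.41 ± 0.09) were negative and did not pass. By complex the medians were -0.25 for 19 genes of complex I, -0.33 for 6 genes of complex III with cytochrome c, -0.32 for 9 genes of complex IV and -0.10 for 7 genes of the ATP synthase, which had 0 calls. The medians on KO 1, KO 2 and KO 3 were -0.20, -0.29 and -0.23 relative to the WT mean. Without WT 2 or WT 3 the number of calls was 0, without KO 3 it was 1, without KO 2 it was 2 and without WT 1 it was 3. It was 1 with the authors' values, with the background from median and median absolute deviation and with a trended variance. With median centring 27 of 43 were negative with 2 calls and a median of -0.08, so the size of this difference depends on the scaling.

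The transcripts made from mitochondrial DNA, a list added after the values were seen and read from probes named for them in the array design, were positive in 12 of 13 cases with a median of 0.29 and 0 calls. The ND5 transcript read 3624, 3658 and 3695.5 in WT and 4327, 8222.5 and 8260.4 in KO, a difference of 0.88 ± 0.27 (mtDNA_ND5, limma's adjusted p = 0.140). KO 1 lay close to WT and the other KO arrays well above it. The list medians on KO 1, KO 2 and KO 3 were 0.08, 0.42 and 0.40. Without KO 1 the list median was 0.40 and 6 of 13 were called higher. A further ND4 probe, named through its gene ID, was called higher at 0.46 ± 0.09 (limma's adjusted p = 0.0498), and a dim ND5 probe named the same way went the other way at -0.39 ± 0.17.

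Genes of central carbon metabolism were mostly negative too. Of 14 measured glycolysis genes 13 were negative with a median of -0.22 and 1 call, Ldha, lactate dehydrogenase A, at -0.42 ± 0.08 (limma's adjusted p = 0.0497), which was called in 0 of 6 fits with 1 array left out. Eno1, enolase, at -0.70 ± 0.14, and Pfkm, phosphofructokinase, at -0.47 ± 0.09, did not pass. Of 12 genes of the TCA cycle 11 were negative with 0 calls and a median of -0.18, led by Ogdh at -0.56 ± 0.20 and Idh3b at -0.49 ± 0.13. With median centring these medians were -0.05 and -0.03. The 63 measured cytosolic ribosomal protein genes had a median of -0.04 and 1 call, Rps2, at -0.61 ± 0.08. Of 20 proteasome genes 2 were lower, the activator subunits Psme4 (-0.52 ± 0.09) and Psme2 (-0.42 ± 0.08). Medians of the ribosomal and proteasome lists turned positive with median centring.

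**Figure D4:**
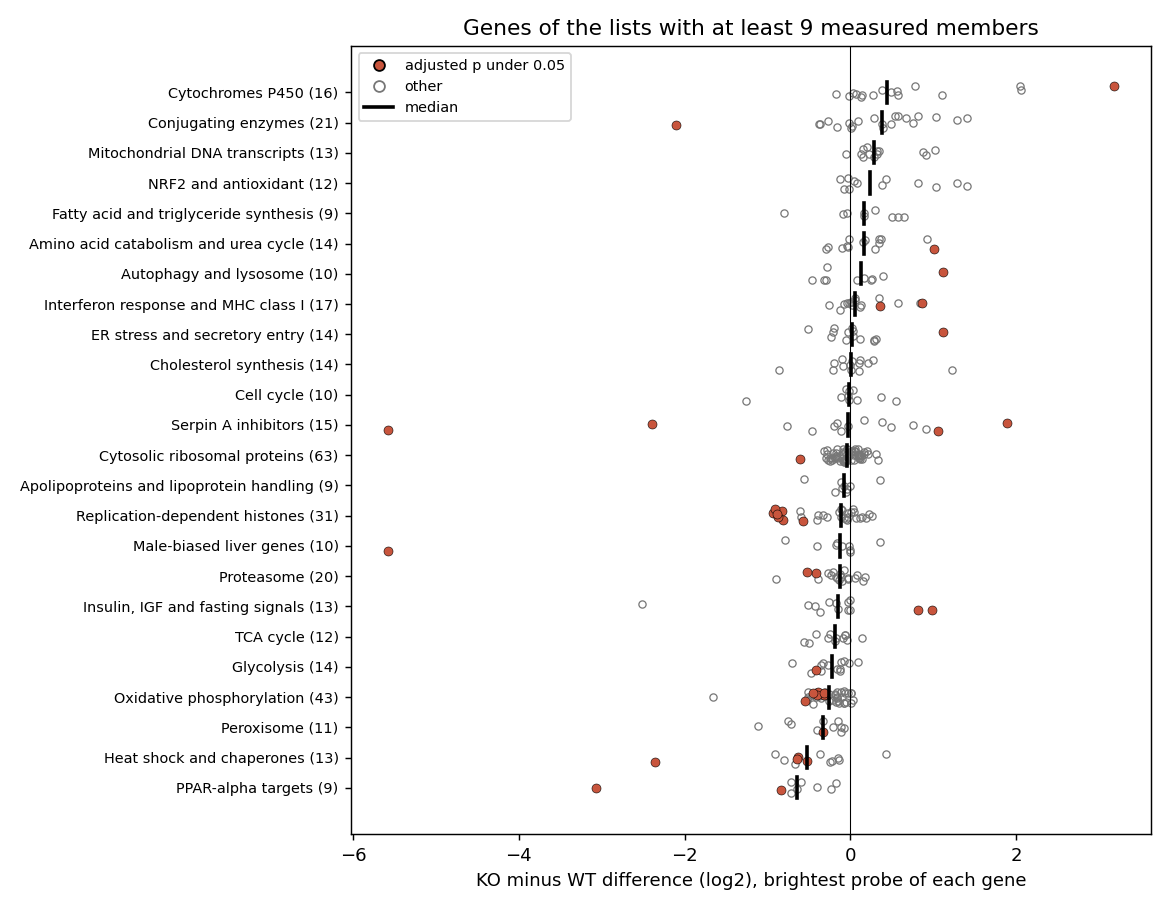
KO minus WT difference (log2, horizontal axis) of each measured gene in the lists with at least 9 measured members, with red points for an adjusted p under 0.05, open points for the others and a black bar at each list's median. PPAR-alpha targets, chaperones and oxidative phosphorylation have medians of -0.64, -0.52 and -0.25, and cytochromes P450 have a median of 0.44.

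Detoxification genes were mostly positive. Cyp2c29, a cytochrome P450 of the Cyp2c family, which oxidises drugs, steroids and arachidonic acid, read 589, 1640.3 and 1691 in WT livers and 6707, 9966 and 11303 in KO livers. WT 1 was well below the other WT arrays, and all KO arrays were far above WT. Cyp2c29 rose by 3.19 ± 0.54 (9.10-fold, limma's adjusted p = 0.0384), called in 2 of 6 fits with 1 array left out. Without WT 1 the difference was 2.59 (6.004-fold, limma's adjusted p = 0.0337). Blocking on the slide gave 2.60. The other measured Cyp2c genes went the same way without passing, Cyp2c37 at 2.05 ± 0.60 and Cyp2c50 at 2.06 ± 0.66, and so did Cyp2a5, a coumarin hydroxylase, at 1.10 ± 0.22 (limma's adjusted p = 0.0552). These genes resemble each other closely and probes can share transcripts. On KO 1, KO 2 and KO 3 the Cyp2c median lay at 1.17, 2.55 and 2.91 relative to the WT mean, and on the WT arrays at -1.10, 0.66 and 0.44. The P450 list had 16 measured members, the P450 reductase among them, of which 14 were positive and 1 was called, with a median of 0.44. Without KO 3, 10 of the 16 were positive and the median was 0.28. P450 genes placed in other lists are not counted here, such as Cyp4a10 (-0.64), Cyp4a12a (-0.175) and Cyp51 (-0.09), which were negative and not called. Cyp3a11, the main drug-induced P450 of mouse liver, differed by 0.28 ± 0.45 and was not called.

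Conjugating enzymes, which attach glutathione, glucuronic acid or other groups, had 15 of 21 measured members positive with a median of 0.38, and the 1 call was a fall. Ugt1a9, a glucuronosyltransferase, read 651, 899.6 and 496 in WT livers and 219, 160.2 and 201 in KO livers and fell by 2.11 ± 0.32 (limma's adjusted p = 0.0302). A second, dimmer Ugt1a9 probe differed by -0.70 ± 0.19 and was not called, and the Ugt1a genes share their last exons. Positive without passing were the glutathione transferases Gsta2 (1.41 ± 0.30), Gsta1 (1.29 ± 0.30) and Gstm1 (1.03 ± 0.24). Selenbp1, a thiol oxidase, rose by 0.72 ± 0.11 from 1947, 2110.1 and 1891 to 2877, 3339.8 and 3555 (limma's adjusted p = 0.0298). Without KO 1 the conjugating list had 4 members called higher and 2 lower.

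Upp2, uridine phosphorylase, which breaks uridine down to uracil, read 718, 1596 and 1227 in WT livers and 4175, 4175 and 3775 in KO livers. It rose by 2.01 ± 0.34 (4.02-fold, limma's adjusted p = 0.0380), and its second probe was called too, at 2.03 ± 0.38. The WT arrays differed among themselves by more than the KO arrays did. Afmid, the formamidase of tryptophan breakdown, read 753, 826 and 1048 in WT livers and 1624, 1593 and 1695 in KO livers and rose by 1.01 ± 0.12 (limma's adjusted p = 0.0158). The other 13 measured genes of amino acid breakdown and the urea cycle were not called, with Prodh, proline dehydrogenase, at 0.93 ± 0.24 and Cps1, the first enzyme of the urea cycle, at 0.34 ± 0.16. Retreg1, a receptor for autophagy of the endoplasmic reticulum, read 1659.8, 1862 and 2165.5 in WT livers and 4161, 4444 and 3450.2 in KO livers and rose by 1.12 ± 0.12 (limma's adjusted p = 0.0127), while Hspa5, the main chaperone of that compartment, was at -0.51 ± 0.25 and not called.

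Among genes of insulin signalling Pik3r1, the regulatory subunit of phosphoinositide 3-kinase, read 504, 379 and 396.5 in WT livers and 722, 714 and 783 in KO livers. Each KO array lay above each WT array, as the choice of the largest rises required. Pik3r1 rose by 0.99 ± 0.17 (limma's adjusted p = 0.0421), called in 1 of 6 fits with 1 array left out. Socs2, a growth hormone-induced inhibitor of its own pathway, read 2321, 604 and 612 in WT livers and 255, 206 and 262 in KO livers, a difference of -2.52 ± 0.66 that did not pass (limma's adjusted p = 0.0958). Foxo1, a fasting transcription factor, was at -0.25 ± 0.05, and Igf1 at -0.15 ± 0.11. Of 13 measured members 2 were higher and 0 lower, with a median of -0.15 that turned to 0.02 with median centring. Gnas, the G protein subunit that couples glucagon receptors to cyclic AMP, fell by 1.08 ± 0.20 (limma's adjusted p = 0.0479).

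Genes of nitric oxide, adhesion and immunity changed singly. Ddah1, which degrades an endogenous inhibitor of nitric oxide synthase, read 1412, 1017 and 1451 in WT livers and 565.5, 355 and 399.6 in KO livers and fell by 2.15 ± 0.28 (limma's adjusted p = 0.0215), called in 1 of 6 fits with 1 array left out. Tns1, tensin, which links integrins to actin, read 308, 296 and 405 in WT livers and 868, 699.9 and 673.5 in KO livers and rose by 1.44 ± 0.18 (limma's adjusted p = 0.0185). Irf1, an interferon-regulated transcription factor, rose by 0.36 ± 0.05, by 0.99 with the MAD background and by 1.54 with the authors' values. Apol9b, an apolipoprotein L family gene, rose by 0.87 ± 0.13. With Apol9a at 0.84 ± 0.20 not called, the interferon and MHC list had 17 measured members, 2 higher, 0 lower and a median of 0.06. Irf7, another interferon regulatory factor, was at -0.02 ± 0.05 and not called.

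Other large falls were in genes of protein targeting, translation and protein modification. Srpr, the signal recognition particle receptor, read 1725, 1901 and 1856 in WT livers and 733, 721 and 633 in KO livers and fell by 1.76 ± 0.09, whereas a second Srpr probe of like brightness differed by 0.04 ± 0.10. Fgfr1op2 fell by 1.76 ± 0.04, while its dim second probe was at -0.10 ± 0.05. Atpsckmt, which methylates a subunit of the ATP synthase, fell by 1.47 ± 0.06 from 548, 583.5 and 623 to 296.5, 273 and 283. These 3 calls were kept in 6 of 6 fits with 1 array left out. Eif2s2, a subunit of the initiation factor that brings the first transfer RNA, fell by 0.999 ± 0.12. Zbtb8os, of the transfer RNA ligase complex, lost detection on the 3 KO arrays, a fall of at least 1.79-fold. Among 27 genes with more than 1 tested probe and a call, the probes shared a sign for 20 and were all called for 2, Upp2 and Ndufs3.

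The remaining rises among the 20 largest were smaller. Pheta1, an endosomal protein, rose by 0.93 ± 0.14, Hnrnpdl, an RNA-binding protein, by 0.79 ± 0.13, Hdhd5 by 0.77 ± 0.12 and Herc2, a ubiquitin ligase, by 0.74 ± 0.08. Ppp4r3b, a regulatory subunit of protein phosphatase 4, read 481, 439 and 483 in WT livers and 719, 765 and 710.4 in KO livers and rose by 0.77 ± 0.05. Tmem234 read 659, 649 and 747 in WT livers and 1080.1, 1126 and 1083 in KO livers and rose by 0.76 ± 0.05. Their groups were narrow, and both calls were kept in 6 of 6 fits with 1 array left out. Tshz1, a zinc finger transcription factor, rose by 0.75 ± 0.06, and Tmem68 by 0.72 ± 0.08, or by 1.39 with the MAD background and 1.92 with the authors' values. Adjusted p for these 8 genes, from limma, ran from 0.00440 to 0.0333.

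By chromosome, the share of named genes called by their brightest probe was highest among the autosomes on chromosome 12, 13 of 117 (11.1%). It was 11 of 179 (6.15%) on chromosome 6, where Cav1 lies, and between 1.71% and 7.04% on the other autosomes. The 11 leave out Resf1 and Mug-ps1, whose called probes are not their brightest. These are descriptions with no test. The chromosome 12 genes included Acot3, Serpina1e, Serpina11, Serpina12 and Serpina3m. Besides those described above, the called genes on chromosome 6 included Hnrnpa2b1 (-0.90 ± 0.17), an RNA-binding protein, Mrps33 (-0.38 ± 0.07), of the mitochondrial ribosome, Ddx47 (-0.31 ± 0.05), an RNA helicase, Dera (0.63 ± 0.08), deoxyribose-phosphate aldolase, Rhno1 (0.38 ± 0.05) and Resf1 (0.30 ± 0.06, or 1.43 with the MAD background and 2.52 with the authors' values).

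The liver differences were set against those of the other tissues, in which no arrays are shared with liver. The effect of the knockout differed between liver and MEFs for 609 of 12571 probes (4.84%) and between liver and adipose tissue for 733 (5.83%). Of the 40 genes with the largest liver differences, which were chosen on the liver contrast that this difference contains, 25 differed from MEFs, 24 from adipose tissue and 22 from both. MEFs had 10 of the 40 detected on none of their 6 arrays, 8 of them among the 25, and adipose tissue had 6 such genes, all among the 24. A gene not detected in a tissue could show no effect there, so its difference from liver cannot be told apart from where the gene is measurable. Of genes detected on all 6 arrays of the other tissue, 11 of 24 differed from MEFs and 13 of 29 from adipose tissue. For Serpina1e the other tissues gave 0.02 in MEFs and 0.08 in adipose tissue, for Cyp2c29 0.00 and -0.01, and for Upp2 0.00 and 0.00. Upp2 was detected on 0 of the 12 arrays of these tissues, Serpina1e on 0 of 6 MEF and 2 of 6 adipose arrays, and Cyp2c29 on 6 and 2, so most of these values are at background. For 13 of the 40 genes the difference passed against neither tissue, which does not show that the effects are equal. Eif2s2 and Tmem68 are among these 13. Eif2s2 was at -0.999 in liver, -0.89 in MEFs and -0.87 in adipose tissue, and Tmem68 at 0.72, 0.85 and 0.83, with limma's adjusted p for the differences between tissues from 0.802 to 0.869. Fgfr1op2 was at -1.76, -1.97 and -2.63, and the fall was larger in adipose tissue by 0.87 (limma's adjusted p = 0.000153). A dim second Fgfr1op2 probe was at -0.10, 0.02 and -0.09. Srpr was at -1.76 in liver, 0.12 in MEFs and -1.90 in adipose tissue, but its second probe, of like brightness, was at 0.04, 0.01 and 0.06. Atpsckmt was at -1.47 in liver, -0.20 in MEFs and -1.19 in adipose tissue, and its difference from adipose tissue did not pass (limma's adjusted p = 0.249). Ddah1 went the other way in adipose tissue (1.05).

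**Figure D5:**
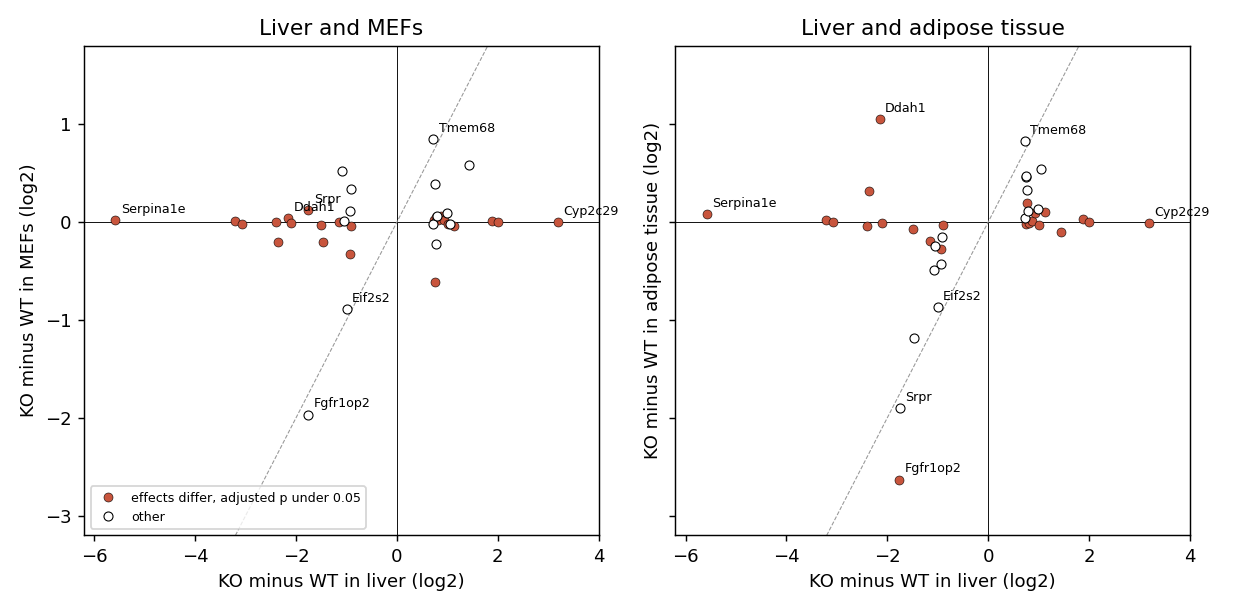
KO minus WT difference (log2) in liver (horizontal axis) against that in MEFs (left) and adipose tissue (right) for 38 of the 40 genes with the largest liver differences, with red points where the effects differ at an adjusted p under 0.05 and a dashed line where they are equal. Most genes lie near 0 on the vertical axis, while Eif2s2 and Tmem68 lie near the dashed line in both panels.

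The calls of the 71 named probes were also counted with 1 array left out at a time. Each such fit holds fewer arrays, so a call can be lost through lower power with little change in the difference. These counts therefore do not measure how far an array carried a call. Without WT 3, 54 of the named probes lost their call, without WT 2 the number was 50 and without KO 2 it was 45. Without KO 3 it was 44, without WT 1 it was 36 and without KO 1 it was 11. Of the 71, 3 were not tested in the fits without a WT array. With the slide as a block 36 lost their call. The size of the difference moved by over 1.5 times, and grew, for 14 named probes with the authors' values and 11 with the MAD background, most of them dim. Besides those given beside their genes, it was -4.68 for Acot3, -6.47 for Serpina12, -3.36 for the dim Mug-ps1 probe, -4.89 for Zbtb8os, -3.42 for Ugt1a9, 1.58 for Hnrnpdl and 0.999 for Rhno1 with the authors' values. It shrank by that much for Mug2 with no background correction, to -2.53. No named gene changed sign under any of these fits or any other alternative run. Named genes called in 6 of 6 such fits included Serpina1e, Mug2, Acot3, Fgfr1op2, Srpr, Atpsckmt, Dag1, Tmem234, Ppp4r3b and Serpina11, of 183 named genes called. Dag1, dystroglycan, was found in this count and not by size, at 0.65.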

How the data were processed

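Fasted liver RNA was measured on 6 Illumina Mouse-6 V1 arrays. The raw values are the deposited mean intensities over each probe's beads, exported by BeadStudio 1.5.1.3 with no normalization, per the file headers. A detection p-value for each probe and array was deposited with them. The authors also deposited normalized intensities (linear scale), bead numbers and bead errors, and, as other information, which slide and position held which sample. The tools lumi, affy, RMA and limma stand in the submitters' processing notes, which do not say what each did. From the raw intensities, neqc in limma 3.58.1 (R 4.3.3) corrected background by normexp, added an offset of 16, quantile normalized the 6 liver arrays and took log2. Because the fitted background SD was 110.5 to 143 raw units against a median absolute deviation of 11.7 to 13.0, differences of dim probes are compressed toward 0. Of 45992 probes, 66 controls were left out, and 12571 were tested because 3 or more of 6 arrays detected them (detection p under 0.05).

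KO was compared with WT by lmFit and eBayes, two-sided, with Benjamini-Hochberg adjustment over all tested probes. All adjusted p-values come from limma. Differences between tissues were contrasts in 1 fit over 18 arrays, each tissue normalized by itself. Errors are standard errors of the log2 difference unless called SD. A fold for a gene detected on 0 arrays of a genotype is a lower bound, taken against each array's lowest detected value or the probe's own, whichever was higher. Each tested probe rested on 12 to 81 beads per array, and the number of arrays, 3 per genotype, limits the precision.

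Gene names were read from the number in the probe name as an NCBI gene ID and matched to a RefSeq table (GRCm38.p6), which named 9807 probes. Of 11868 such numbers 82.6% matched, against 41.1% to 46.2% after shifting them, so single names can be wrong. The 39 gene lists, 11 marker lists and the naming rule were chosen with earlier results of these data known, and 2 lists (histones, mitochondrial DNA transcripts) were added after values were seen. Named genes are Cav1, the 20 largest called rises and falls without overlap between groups, called list members, called genes on chromosome 6 and second probes. For a list without a call the rule takes the 2 members with the widest differences. Other genes named without a call, and Reln, Dag1 and the further ND4 and ND5 probes, fall outside this rule and were chosen for their role or size after their values were seen. Lists are described by counts and medians, by the brightest probe of each gene. Promoter sequences are RefSeq's, aligned with Biopython 1.88. In the motif counts a gene matched if any of its promoters did, while the shares over all promoters are per promoter. Some measured genes are counted in these totals but not reported here by name. The methods were tested on simulated data. Same-numbered WT and KO arrays did not all deviate together (correlations 0.23, 0.23 and -0.10), so the numbers were not taken as pairs. The alternatives tried were no background correction, a background from median and median absolute deviation, median centring, the authors' values, other detection filters, a trended robust variance, 1 fit over 18 arrays, slide or replicate number as a block, and leaving out each array.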

Additional observations from a re-analysis of the deposited data

Results flagged for a closer look

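For 25 genes, taken from Cav1 and the largest liver differences, the knockout effect in liver differed from that in MEFs by limma's test of the difference itself (adjusted p from 3.11e-11 to 0.0243). The log2 difference between the effects, liver minus MEFs, was positive for Cav1 (3.21), Cyp2c29 (3.18), Upp2 (2.01), Serpina11 (1.87), Retreg1 (1.16), Afmid (1.03), Pheta1 (0.91), Apol9b (0.81), Pigr (0.79), Hdhd5 (0.72), Tshz1 (1.36) and Herc2 (0.72). It was negative for Serpina1e (-5.61), Mug2 (-3.23), Acot3 (-3.05), Serpina12 (-2.39), Hspb1 (-2.16), Ddah1 (-2.19), Ugt1a9 (-2.09), Srpr (-1.88), Pnpla7 (-1.47), Atpsckmt (-1.27), Hbb-b2 (-1.15), Zbtb8os (-0.61) and Gk (-0.86). For Tshz1 the differences had opposite signs. The Srpr value comes from 1 of its 2 probes, and the other, of like brightness, gave 0.03 (limma's adjusted p = 0.978). Liver Cav1 was near background on the KO arrays, so its value does not measure a smaller fall. Of the 40 genes with the largest liver differences 10 were detected on no MEF array, 8 of which differed, among them Serpina1e, Mug2, Acot3, Serpina12, Upp2, Serpina11 and Ugt1a9, which could show no effect there. No explanation was tested.

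The effect in liver differed from that in adipose tissue for 24 genes (limma's adjusted p from 3.43e-11 to 0.034). The log2 difference, liver minus adipose tissue, was positive for Cav1 (4.14), Cyp2c29 (3.196), Upp2 (2.004), Serpina11 (1.86), Tns1 (1.54), Retreg1 (1.02), Afmid (1.04), Pheta1 (0.83), Apol9b (0.86), Pigr (0.82), Hdhd5 (0.57), Herc2 (0.76) and Fgfr1op2 (0.87). It was negative for Serpina1e (-5.67), Mug2 (-3.23), Acot3 (-3.07), Serpina12 (-2.36), Hspb1 (-2.68), Ddah1 (-3.203), Ugt1a9 (-2.10), Pnpla7 (-1.43), Hbb-b2 (-0.96), Zbtb8os (-0.66) and Gk (-0.88). Of those 40, 6 were detected on no adipose array and all 6 differed. For Fgfr1op2 the fall was larger in adipose tissue, and for Ddah1 and Hspb1 the adipose difference was positive. The Fgfr1op2 value comes from its brighter probe, and the dim one gave -0.01. The genes were chosen for their size in liver, which is part of each difference, and groups of 3 arrays were not tested for outlying arrays.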

How the results depend on the processing

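Against 590 probes called in liver (247 higher, 343 lower), the counts that moved by over 1.5 times were 418 higher with no background correction, 560 higher and 140 lower with median centring, 372 called and 183 lower with the authors' values, 357 called (145 and 212) without a detection filter, 414 higher with a trended robust variance, 1345 called (681 and 664) in 1 fit over 18 arrays and 292 called (123 and 169) with the slide as a block, of which 226 were among the 590. With 1 array left out the counts ranged from 58 (without WT 3) to 1052 (without KO 1) called, from 20 to 536 higher and from 38 to 516 lower. Within the slide that held 5 arrays, that is without WT 1, 287 were called, an alternative chosen after seeing the data. The probes whose effect differed from MEFs numbered 609, 347 with no background correction, 379 with the authors' values and 435 to 957 with 1 array left out, and those that differed from adipose tissue numbered 733, 336 with the authors' values and 562 to 1156 with 1 array left out. With the replicate number as a block, although the numbers were not shown to pair the samples, 259 were called (118 higher, 141 lower, 203 among the 590). For the 71 named probes 674 of 1121 alternative values kept direction and side of the threshold, 442 lost and 5 gained a call, and 0 changed direction. Of the 41 list medians 11 changed sign under some alternative, 7 of them with median centring. The cause of these shifts was not tested. Depth in reads does not apply, and probes near background have compressed differences.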

Other observations

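The circadian clock list had 5 measured genes and 0 called, with a median of 0.12. The lists of male-biased and female-biased liver genes had 10 and 5 measured members, with Serpina1e and Acot3 as their respective calls and medians of -0.13 and -0.07. The major urinary protein genes Mup1, Mup2 and Mup3 differed by 0.00 ± 0.03, -0.40 ± 0.22 and -0.01 ± 0.11, and Cyp4a12b by -0.78 ± 0.34, none of them called. The 12 antioxidant genes under NRF2 had 0 calls and a median of 0.23, with 8 positive members, 4 of them glutathione transferases, and the peroxiredoxin genes Prdx1, Prdx5 and Prdx6 were at 0.08, -0.01 and -0.12. The 10 cell cycle genes had 0 calls and a median of -0.02.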
